A study of Homo sapiens with 18 samples.

Results

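Iron storage and antioxidant defence were followed through 10 genes in H1299 cells: the ferritin subunits FTH1 and FTL, the transferrin receptor TFRC, the NRF2-responsive enzymes NQO1, HMOX1, GCLC, GCLM, TXNRD1 and SRXN1, and NFE2L2, which encodes NRF2 itself. They were picked by gene symbol, and all 10 were found among the 60622 genes with counts. H1299 is a line from a human lung tumour that lacks p53 of its own. It was given wild-type p53 under doxycycline control, carrying the FKBP12F36V and HA tags, and the study asked how 2 AceTAG compounds change the transcriptome. An AceTAG is a bifunctional molecule meant to carry an acetyltransferase to a protein that bears the FKBP12F36V tag. The 6 groups, with 3 libraries each and 24 h of treatment, were induced and non-induced H1299 given DMSO, AceTAGp300CBP-1 (the p300/CBP compound) or AceTAGPCAFGCN5-4 (the PCAF/GCN5 compound). All have the genotype wt in the labels. The labels give no compound dose. They do not say whether non-induced cells carried the construct or received doxycycline, whether the line was a single clone, or whether replicates were separate cultures, so p-values measure the spread between these libraries, which may be technical.

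Ferritin is a hollow shell of H and L subunits that stores iron: FTH1 oxidises the metal and FTL helps to lay down the mineral core. TFRC brings transferrin-bound iron into the cell. Iron regulatory proteins bind stem-loops in these mRNAs when iron is low, which blocks ferritin translation and protects TFRC mRNA from decay. NRF2 is held low by KEAP1 and, when released, drives antioxidant genes together with small MAF partners. NQO1 reduces quinones, HMOX1 opens heme and frees its iron, GCLC and GCLM form the enzyme that limits glutathione synthesis, TXNRD1 recharges thioredoxin and SRXN1 repairs overoxidised peroxiredoxins. Ferritin genes are NRF2 targets too.

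The stem-loops are shown because they are the sequence that ties FTH1, FTL and TFRC to iron. They were searched in GENCODE 29 transcripts (GRCh38), on the transcript strand only. The pattern was a C, 5 bases, the loop CAGTGN with N not G, and then 5 bases that pair with the 5 before the loop. A pair of G with T was allowed. Capitals mark the loop, and each run is 30 bases, 5′ to 3′. FTH1 and FTL each held 1 in the 5′ UTR and TFRC held 4 in the 3′ UTR:
FTH1, 5′ UTR, minus strand, chr11:61967573-61967602: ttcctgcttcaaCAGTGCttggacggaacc
FTL, 5′ UTR, plus strand, chr19:48965335-48965364: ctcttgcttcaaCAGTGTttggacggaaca
TFRC, 3′ UTR, minus strand, chr3:196050978-196051007: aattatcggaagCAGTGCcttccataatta
TFRC, 3′ UTR, minus strand, chr3:196050574-196050603: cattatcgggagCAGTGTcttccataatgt
TFRC, 3′ UTR, minus strand, chr3:196050509-196050538: ctgtatcggagaCAGTGAtctccatatgtt
TFRC, 3′ UTR, minus strand, chr3:196050462-196050491: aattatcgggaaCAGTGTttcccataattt
The same pattern was found anywhere in the transcripts, coding sequence included, of 210 of 19669 protein-coding genes (1.07%). No other member held it. A match is a description of letters, not proof of a working element.

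The core of the antioxidant response element, TGACNNNGC, was searched on both strands of the 300-base RefSeq promoters (GRCh38.p14). Entries were matched for 8 of the 10 genes, all but FTH1 and HMOX1. GCLM and TXNRD1 held the core in a promoter. Counted by promoter rather than by gene, 13.3% of 35116 hold it. Of the other NRF2 targets listed, 6 of 17 genes with an entry held it. Elements outside these windows were not searched. The windows are shown because these genes are among those that fell on induction. Each is 30 bases on the strand that carries the motif, with the core in capitals. Positions are given for the core's first base along the gene strand, which on the opposite strand is the last capital printed. In GCLM the core lies on the strand opposite to the gene, at -34 from the start. In the first promoter of TXNRD1 the nearer match, also on the opposite strand, begins at -8:
GCLM, chr1:93909446-93909475: tggaagacaaTGACTAAGCagaaatcgtag
TXNRD1, gene strand, chr12:104215670-104215699: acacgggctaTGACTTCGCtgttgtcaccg
TXNRD1, opposite strand, chr12:104215760-104215789: ctgtgggaacTGACGGAGCcgaaggacgcc
TXNRD1, second promoter, opposite strand, chr12:104286919-104286948: agagtcagaaTGACAAAGCagaaatccact

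Library totals ran from 9.1 to 29.2 M counts, the third non-induced DMSO library being the shallowest. The third induced DMSO library stood apart: mitochondrial transcripts made up 0.714% of its counts, against 1.32% to 2.45% elsewhere, so results that use it are given with and without it where they change. As a check of induction, CDKN1A, which encodes the cell cycle inhibitor p21, rose from 89.6 ± 3.37 to 352 ± 25.2 CPM (counts per 1000000 counts) on induction in DMSO (SD, n = 3). The keratins KRT8 and KRT18 and VIM were expressed, with KRT19 at no more than 2 counts in any library. Of the 3 line markers tested, VIM fell on induction in DMSO (-0.51 ± 0.08, adjusted p = 0.00336), all 3 fell on induction with the p300/CBP compound (median -0.49) and KRT18 and VIM with the PCAF/GCN5 compound (median -0.36). KRT18 fell with the p300/CBP compound in non-induced cells (-0.24 ± 0.06, adjusted p = 0.0223) and KRT8 and KRT18 in induced ones (median of the 3 -0.37), and the part of these changes in the results was not tested. The marker lists of lung epithelium, red cells, leukocytes and endothelium each summed to at most 0.86 CPM, with PTPRC at 0 in every library, and that of fibroblasts to at most 2.88 CPM.

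Per kilobase of gene length, the mean levels over the 6 groups were 641 CPM per kb for FTL, 141 for FTH1, 111 for NQO1, 88.0 for TXNRD1, 29.6 for NFE2L2, 16.6 for TFRC, 13.7 for GCLM, 10.5 for HMOX1, 7.67 for GCLC and 1.09 for SRXN1. FTL was thus the most abundant transcript of the set and SRXN1 the rarest. The ranges of the group means separated FTL and SRXN1 from every other gene. FTH1 and NQO1 came within their replicate spread of each other, the lowest FTH1 mean being 120.4 ± 3.44 (SD, n = 3) and the highest NQO1 mean, in another group, 120.1 ± 5.39. Ranges overlapped for NQO1 (101 to 120) and TXNRD1 (73.6 to 104), and for TFRC (12.5 to 22.6) and GCLM (11.7 to 15.2). SRXN1 rested on 12 to 185 counts a library, against at least 174 for every other member.

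**Figure D1:**
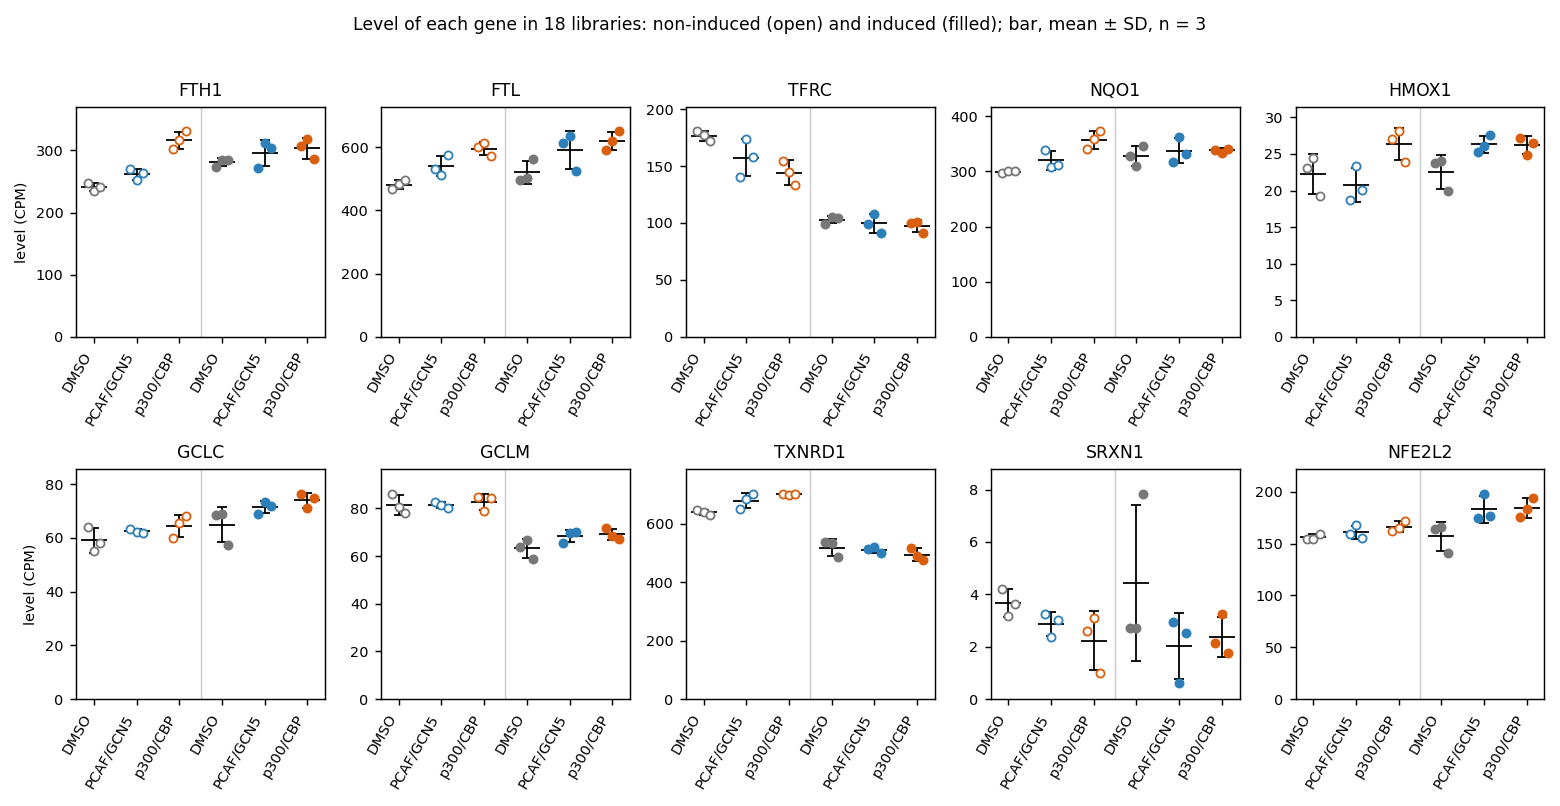
Level (CPM, linear axis from 0) of each of the 10 genes in 18 libraries, by treatment, non-induced as open and induced as filled points, with group mean ± SD (n = 3). TFRC, GCLM and TXNRD1 are lower in all 9 induced libraries than in all 9 non-induced ones, and the third induced DMSO library stands high for SRXN1.

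In cells without induction, the p300/CBP compound raised both ferritin genes and NQO1 and lowered TFRC. That makes 4 of 10 members called at an adjusted p below 0.05, beside 9.89% of 14943 genes tested. Of these, 3 were higher (3.43% of all genes were called higher) and 1 lower (6.46%). The median log2 change of the 10 members was 0.11, beside 0.0043 over all genes tested. The authors' deposited table called the same 4 members, beside 12.9% of its genes. With the PCAF/GCN5 compound no member passed, and only 0.0199% of genes did. At an unadjusted p under 0.05 FTL (0.0165) and TFRC (0.0185) were the members there, and the DESeq2 Wald test called none.

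Induction itself lowered TFRC, GCLM and TXNRD1 with every treatment. In DMSO these 3 were the members called, all lower, where 13.8% of 15055 genes passed (6.01% higher, 7.77% lower). With the p300/CBP compound 5 were called, the same 3 lower and GCLC and NFE2L2 higher, beside 32.6% of all genes (16.4% higher, 16.2% lower). With the PCAF/GCN5 compound 4 were called, the same 3 lower and HMOX1 higher, beside 23.9% of all genes (11.4% higher, 12.5% lower). The members' median change was 0.03, -0.05 and 0.07 in that order, beside 0.0093, 0.0051 and 0.0020 over all genes. Each induction comparison uses its own libraries.

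In induced cells neither compound changed a member past the threshold. The p300/CBP compound called 0 of 10 beside 5.98% of all genes, with FTL, GCLC and NFE2L2 at an unadjusted p under 0.05 (0.0105, 0.0486 and 0.0136). The DESeq2 Wald test called FTL alone, at an adjusted p of 0.0415. The authors' deposited table called GCLC (0.17 ± 0.07, adjusted p = 0.0489) and NFE2L2 (0.21 ± 0.07, adjusted p = 0.0158), in a table where 19.7% of genes passed. Without the third induced DMSO library 4 members passed: FTH1 (0.12, adjusted p = 0.0268), FTL (0.31, 1.69e-09) and NFE2L2 (0.16, 0.00356) higher and TXNRD1 (-0.12, 0.0377) lower. In that fit the genes called rose from 898 to 3234. The PCAF/GCN5 compound gave 0 of 10 beside 0.345% of all genes, with no member at an unadjusted p under 0.05 and none by the DESeq2 Wald test. Both comparisons, and both in non-induced cells, share their DMSO libraries.

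**Figure D2:**
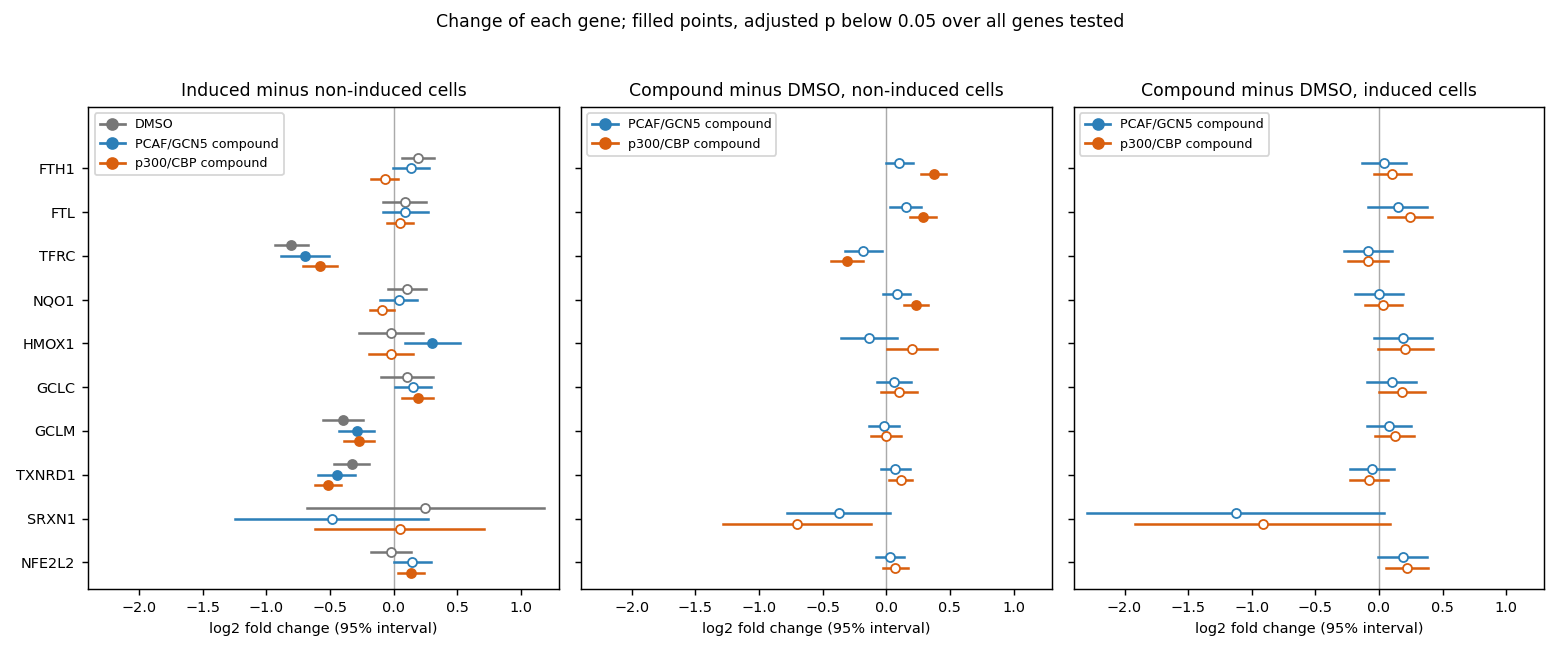
Log2 fold change with its 95% interval for each gene: induced against non-induced cells within each treatment (left), and compound against DMSO in non-induced (middle) and induced (right) cells, with filled points at an adjusted p below 0.05. TFRC, GCLM and TXNRD1 are filled left of 0 for all 3 treatments, and in the middle panel FTH1, FTL, NQO1 and TFRC are filled for the p300/CBP compound.

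FTH1 showed the clearest compound response. Non-induced libraries held 248, 234 and 241 CPM with DMSO, 269, 252 and 264 CPM with the PCAF/GCN5 compound and 303, 316 and 331 CPM with the p300/CBP compound. The 3 groups did not overlap. The p300/CBP compound raised FTH1 1.29-fold (log2 0.37 ± 0.05 SE, n = 3, adjusted p = 8.81e-05, edgeR). With the PCAF/GCN5 compound the change was 0.10 (95% interval -0.00 to 0.21, adjusted p = 0.788). Induced libraries held 274, 284 and 285 CPM with DMSO, 272, 311 and 304 CPM with the PCAF/GCN5 compound and 307, 319 and 286 CPM with the p300/CBP compound. DMSO libraries of induced cells thus already lay above those of non-induced cells, a difference of 0.19 ± 0.06 that missed the threshold (adjusted p = 0.0544) and passed it without the third induced DMSO library (0.17, adjusted p = 0.000536) and with all 6 groups in 1 fit (0.20, 0.0189). The p300/CBP change was 0.10 (-0.04 to 0.25) in induced cells. The difference between the states was -0.26 (95% interval -0.43 to -0.09) and did not pass (adjusted p = 0.189), while without the third induced DMSO library it was -0.25 with an adjusted p of 0.0492.

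FTL, the other ferritin subunit, held 466, 483 and 495 CPM in non-induced DMSO libraries and 600, 612 and 573 CPM with the p300/CBP compound. These groups lay apart, a rise of 1.22-fold (0.29 ± 0.05, adjusted p = 0.000921). With the PCAF/GCN5 compound FTL held 532, 513 and 575 CPM, above all DMSO libraries, and the change of 0.15 (0.03 to 0.27) did not pass (adjusted p = 0.779). In induced cells it held 497, 502 and 562 CPM with DMSO, 592, 620 and 649 CPM with the p300/CBP compound and 613, 636 and 523 CPM with the PCAF/GCN5 compound. The p300/CBP libraries again lay above DMSO without overlap (0.24, interval 0.07 to 0.42, adjusted p = 0.101), and those of the PCAF/GCN5 compound overlapped it. The states did not differ in this respect beyond the interval, -0.03 (-0.23 to 0.16). Induction in DMSO changed FTL by 0.09 (-0.08 to 0.25).

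Ferritin counts carry a limit of their own, since both genes have many processed copies in the genome. The 24 annotated FTH1 copies held 0.202% to 0.661% of the counts of FTH1 and its copies together, and the 16 FTL copies 0.154% to 0.331%. Adding them to the parent gene changed no call. How reads that fit several copies were counted is not stated, so levels of both genes are uncertain to that extent. Of genes whose positions overlap a member, the most abundant were AC019080.1 in NFE2L2 (2.76 CPM on average) and RPL18AP3 in TXNRD1 (2.36 CPM).

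TFRC carried the largest change among the members that passed. It held 180, 177 and 172 CPM in non-induced and 99.4, 105 and 105 CPM in induced DMSO libraries. Induction lowered it to 0.57 of its level (-0.80 ± 0.06, adjusted p = 5.25e-05). With the p300/CBP compound it went from 155, 145 and 133 CPM to 100, 101 and 91.4 CPM (-0.58 ± 0.06, adjusted p = 1.32e-06), and with the PCAF/GCN5 compound from 141, 174 and 158 CPM to 99.2, 108 and 91.6 CPM (-0.70 ± 0.09, adjusted p = 3.39e-05). All 9 induced libraries lay below all 9 non-induced ones. In bulk RNA, fewer cells that express a gene and less of its RNA per cell cannot be told apart. Without induction the p300/CBP compound lowered TFRC (-0.31 ± 0.06, adjusted p = 0.00263) and its libraries did not overlap those of DMSO. The PCAF/GCN5 compound gave -0.18 (-0.32 to -0.03, adjusted p = 0.779) with 1 library above the lowest DMSO one. In induced cells both compounds left it within -0.09 of DMSO, with intervals of -0.24 to 0.07 and -0.28 to 0.10. The p300/CBP change was 0.23 (0.02 to 0.44) less negative in induced cells, which did not pass (adjusted p = 0.413).

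Called changes of ferritin and TFRC thus went, for the p300/CBP compound in non-induced cells, in opposite directions. On induction TFRC alone of the 3 passed, and FTH1 had the same sign as TFRC with the p300/CBP compound (-0.07, interval -0.18 to 0.04). The ratio of FTH1 to TFRC counts was 1.37 ± 0.0385 in non-induced DMSO libraries (SD, n = 3), 1.68 ± 0.234 with the PCAF/GCN5 compound and 2.21 ± 0.265 with the p300/CBP compound. In induced cells it was 2.73 ± 0.0243, 2.98 ± 0.3 and 3.11 ± 0.0442 in the same order. Every induced library exceeded every non-induced one. FTL to TFRC gave 2.73 ± 0.143 and 4.13 ± 0.223 without induction, for DMSO and the p300/CBP compound, and 5.05 ± 0.294 and 6.38 ± 0.637 with it. A ratio within a library does not depend on the scaling between libraries, and no test was run on it.

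**Figure D3:**
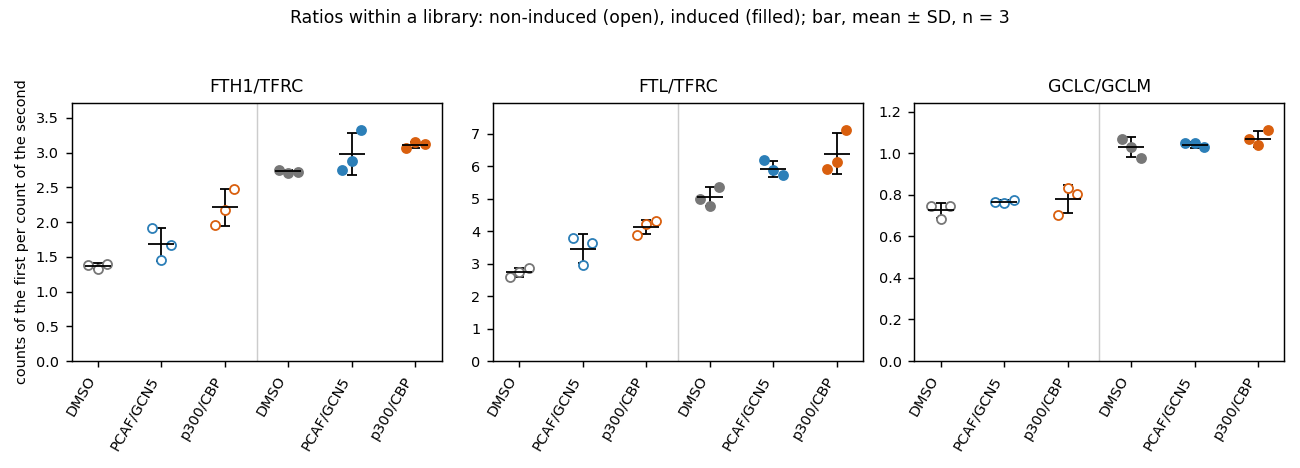
Counts of the first gene per count of the second within each library (linear axis from 0), for FTH1/TFRC, FTL/TFRC and GCLC/GCLM, with group mean ± SD (n = 3). In all 3 panels every induced library (filled) lies above every non-induced one (open), and FTH1/TFRC rises from 1.37 with DMSO to 2.21 with the p300/CBP compound in non-induced cells.

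NQO1 moved like the ferritins without induction. It held 296, 301 and 301 CPM with DMSO and 340, 358 and 372 CPM with the p300/CBP compound, groups that did not overlap (0.23 ± 0.05, 1.18-fold, adjusted p = 0.00285). The PCAF/GCN5 libraries held 339, 309 and 312 CPM (0.08, interval -0.02 to 0.18). Induced libraries ranged from 310 to 362 CPM with no difference that passed, and the p300/CBP change there was 0.03 (-0.11 to 0.18). The difference between the states was -0.19 (-0.36 to -0.03, adjusted p = 0.387).

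HMOX1 was low, at 18.8 to 28.1 CPM. It passed in a single comparison, induction with the PCAF/GCN5 compound, where the libraries held 18.8, 23.3 and 20.1 CPM before and 25.3, 26.1 and 27.6 CPM after (0.30 ± 0.10, adjusted p = 0.0398). The groups did not overlap. The call was lost without the first or the third non-induced library or any of the 3 induced ones of that compound, with adjusted p between 0.0525 and 0.125. Induction in DMSO gave -0.02 (-0.27 to 0.23) and the difference between these was 0.32 (-0.01 to 0.64, adjusted p = 0.658). The p300/CBP compound gave 0.20 in non-induced cells (0.01 to 0.40, adjusted p = 0.188), which passed without the third library of that group (0.27, adjusted p = 0.0279).

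The subunits of glutamate-cysteine ligase parted on induction. GCLM, the modifier subunit, held 86.2, 80.6 and 77.9 CPM in non-induced and 63.9, 66.8 and 58.9 CPM in induced DMSO libraries (-0.40 ± 0.07, adjusted p = 0.00636). It fell with the p300/CBP compound (-0.27 ± 0.06, adjusted p = 0.000971) and with the PCAF/GCN5 compound (-0.29 ± 0.07, adjusted p = 0.00435), and no induced library reached the lowest non-induced one. Without the first non-induced DMSO library the fall in DMSO missed the threshold (-0.35, adjusted p = 0.0541). GCLC, the catalytic subunit, went the other way or stayed. It ran from 55.1 to 68.1 CPM without induction and from 57.4 to 76.5 CPM with it, and it rose with the p300/CBP compound (0.19 ± 0.06, adjusted p = 0.0173). That call was lost without the first non-induced p300/CBP library (adjusted p = 0.0745), the first (0.0898) or the third induced one (0.0584), and with all 6 groups in 1 fit (0.0552). In DMSO the change was 0.11 (adjusted p = 0.479), or 0.18 with an adjusted p of 0.0136 without the third induced DMSO library. The ratio of GCLC to GCLM counts was 0.725 ± 0.0365 in non-induced and 1.03 ± 0.0486 in induced DMSO libraries. Neither compound moved GCLM in a state, with changes of -0.02 to 0.12 against DMSO and no interval clear of 0.

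TXNRD1, thioredoxin reductase of the cytosol, was abundant and fell on induction. DMSO libraries held 648, 639 and 631 CPM without and 536, 534 and 485 CPM with induction (-0.33 ± 0.06, adjusted p = 0.00752). The fall missed the threshold without the first (adjusted p = 0.0585) or the second non-induced DMSO library (0.0586). With the p300/CBP compound the levels were 703, 697 and 700 CPM before and 518, 489 and 475 CPM after (-0.52 ± 0.05, adjusted p = 1.06e-07), and with the PCAF/GCN5 compound the fall was 0.45 ± 0.07 on the log2 scale (adjusted p = 0.000205). Across treatments the 9 induced libraries lay at 475 to 536 CPM and the 9 non-induced ones at 631 to 703 CPM. The p300/CBP libraries without induction all exceeded those of DMSO, a change of 0.11 (0.02 to 0.20, adjusted p = 0.102) that passed without the third library of that group (0.12, 0.0316). The fall was larger with the p300/CBP compound than in DMSO by 0.18 (interval of the difference -0.35 to -0.01, adjusted p = 0.441), and that difference passed without the third induced DMSO library (-0.23, 0.0396).

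SRXN1 was sparse and varied widely within some groups, so its changes are uncertain. It held 4.21, 3.16 and 3.64 CPM in non-induced and 2.73, 2.72 and 7.85 CPM in induced DMSO libraries, the high value being in the library that stood apart. Induction in DMSO gave 0.25 (-0.68 to 1.18), and -0.47 without that library. Compound libraries lay between 0.605 and 3.25 CPM. All 4 compound changes were negative, from -1.13 to -0.37, and none passed, with the widest interval, that of the PCAF/GCN5 compound in induced cells, from -2.30 to 0.04. Without a filter on low counts 3 of them passed: the p300/CBP compound in non-induced (-0.71, adjusted p = 0.00901) and induced cells (-0.91, 0.000676) and the PCAF/GCN5 compound in induced ones (-1.11, 0.000332).

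NFE2L2 RNA varied little. It held 155, 155 and 160 CPM in non-induced DMSO libraries and 164, 166 and 141 CPM in induced ones (-0.02, interval -0.18 to 0.14). With the p300/CBP compound it went from 162, 165 and 172 CPM to 176, 183 and 194 CPM on induction, without overlap (0.14 ± 0.05, adjusted p = 0.0344). This small rise was lost without the first (adjusted p = 0.0731) or second (0.101) non-induced or the second (0.104) or the third (0.179) induced p300/CBP library, without a filter on low counts (0.0562) and with all 6 groups in 1 fit (0.128). In induced cells the compounds gave 0.22 (0.06 to 0.39, adjusted p = 0.114) for p300/CBP and 0.18 (-0.00 to 0.37, adjusted p = 0.488) for PCAF/GCN5. The p300/CBP change there passed with all 6 groups in 1 fit (0.215, adjusted p = 0.0268). It also passed without the third induced DMSO library (0.159, 0.00356), the one at 141 CPM that stood apart. NRF2 is controlled mainly through its protein, which was not measured.

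The compounds, named for the acetyltransferases they are meant to recruit, were set against each other in each state. Doses are not given, so these are differences between the groups as treated. Without induction FTH1 was higher with the p300/CBP compound (0.27, 95% interval 0.15 to 0.40, adjusted p = 0.0418), the 1 member of 10 that passed, beside 1.09% of genes. This call was lost without the second (adjusted p = 0.243) or the third p300/CBP library (0.12) and without the second (0.206) or the third PCAF/GCN5 library (0.106). HMOX1 (0.35, 0.12 to 0.57, adjusted p = 0.128) and NQO1 (0.16, 0.03 to 0.29, adjusted p = 0.239) had intervals above 0 but did not pass, and the interval for TFRC was -0.31 to 0.06. In induced cells 0 of 10 passed, beside 4.12% of genes, none had an unadjusted p under 0.05 and the DESeq2 Wald test called none. Intervals there were -0.07 to 0.18 for FTH1, -0.06 to 0.23 for FTL, -0.15 to 0.13 for TFRC and -0.14 to 0.08 for TXNRD1, which bounds but does not remove a difference. The widest was that of SRXN1, -0.60 to 0.99.

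Whether a compound acted differently in the 2 states was tested as an interaction. For the p300/CBP compound 0 of 10 members passed, beside 1.28% of genes, with FTH1, TFRC, NQO1 and TXNRD1 at an unadjusted p under 0.05. FTH1 and TXNRD1 passed without the third induced DMSO library. For the PCAF/GCN5 compound 0 of 10 passed, beside 0.0696% of genes, with no member at an unadjusted p under 0.05. The DESeq2 Wald test called no member in either.

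Of 25 other NRF2 targets listed, 20 could be tested for induction in DMSO, and 2 rose where 13.8% of all genes were called, with a median of -0.00 beside 0.0093 over all genes. They were the NADPH-producing malic enzyme ME1 (0.67 ± 0.13, adjusted p = 0.00814, or 0.0626 without the second non-induced DMSO library) and the epoxide hydrolase EPHX1. EPHX1 (0.34 ± 0.08, adjusted p = 0.0198) missed the threshold without any 1 of the non-induced DMSO libraries or the first induced one, at adjusted p of 0.0728 to 0.108. With the p300/CBP compound in non-induced cells 0 of 20 passed, beside 9.89% of all genes, the median being 0.07 against 0.0043 over all genes. There 3 had an unadjusted p under 0.05, and the DESeq2 Wald test called 0 of 24. In induced cells 2 of 21 rose with the p300/CBP compound, where 5.98% of all genes were called. These were the pentose phosphate enzyme TKT (0.53 ± 0.12, adjusted p = 0.0363) and the aldo-keto reductase AKR1B10, which had 39, 41 and 52 counts against 19, 9 and 1 with DMSO (adjusted p = 0.039). Both calls were lost without the second induced DMSO library or any 1 of the p300/CBP ones. On induction with the p300/CBP compound 3 of 21 rose and 4 fell (median -0.07), beside 32.6% of all genes called, and with the PCAF/GCN5 compound 4 of 21 rose (median -0.03), beside 23.9%. ME1 rose in both (0.48 ± 0.13, adjusted p = 0.0063, and 0.99 ± 0.13, adjusted p = 4.29e-05). AKR1B10, a gene of low counts, rose in both as well. Over the fits that left out 1 library its change was 4.257 to 8.496 and 5.174 to 7.480, and no call was lost. TKT was also higher with the p300/CBP than with the PCAF/GCN5 compound after induction (0.47 ± 0.05, adjusted p = 0.000102).

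Among the 10 genes that control NRF2, which include KEAP1 and the small MAF proteins, 0 to 3 passed in each comparison. SQSTM1, the autophagy receptor p62 that can draw KEAP1 away, rose with the p300/CBP compound in non-induced cells from 345, 355 and 337 CPM to 447, 447 and 469 CPM (0.38 ± 0.04, adjusted p = 4.9e-05). It was the 1 gene of that list to pass there (median 0.03), beside 9.89% of all genes. On induction in DMSO 1 passed (median 0.15), beside 13.8%: BACH1, a repressor at NRF2 sites, rose by 0.31 ± 0.06 (adjusted p = 0.0125), and the call was lost without any 1 of the non-induced DMSO libraries or the first induced one (0.0507 to 0.0852). It rose on induction with the p300/CBP (0.28 ± 0.06, adjusted p = 0.000617) and PCAF/GCN5 compounds (0.38 ± 0.07, adjusted p = 0.0011) as well. With the latter it was the 1 of 10 called, beside 23.9% of all genes. Induction with the p300/CBP compound raised 3 of 10 (median -0.02), beside 32.6%, the others being the small MAF genes MAFF (0.34 ± 0.09, adjusted p = 0.00772) and MAFG (0.18 ± 0.05, adjusted p = 0.00861, or 0.0527 without the third induced p300/CBP library and 0.136 with all 6 groups in 1 fit).

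Among genes of iron handling, NCOA4, the receptor that delivers ferritin to autophagy, rose on induction in DMSO from 175, 177 and 183 CPM to 239, 247 and 230 CPM (0.39 ± 0.05, adjusted p = 0.00176). It rose further with the p300/CBP compound in induced cells, to 325, 327 and 334 CPM (0.45 ± 0.06, adjusted p = 0.00213), and these groups did not overlap. STEAP3, the endosomal reductase for transferrin iron, fell with that compound in induced cells from 65.7, 63.9 and 63.2 CPM to 47.4, 48.7 and 48.7 CPM (-0.42 ± 0.06, adjusted p = 0.00525, or 0.0514 without the third p300/CBP library). NCOA4 and STEAP3 were the 2 of 15 that passed in that comparison, beside 5.98% of all genes. The same 2 of 15 passed without induction, in the same directions, beside 9.89% of all genes (0.20 ± 0.05, adjusted p = 0.0218, and -0.25 ± 0.06, adjusted p = 0.0186). Both calls without induction were lost without any 1 of the non-induced DMSO libraries or the second p300/CBP one, at adjusted p of 0.0572 to 0.129 and 0.0603 to 0.121. On induction in DMSO 1 of 15 rose and 2 fell (median -0.13), where 6.01% of all genes were higher and 7.77% lower. Induction with the p300/CBP compound raised 3 of 15 and lowered 4 (median -0.03), beside 16.4% and 16.2% of all genes, and with the PCAF/GCN5 compound 3 of 14 rose and 2 fell (median -0.03), beside 11.4% and 12.5%. Those that fell in DMSO were the mitochondrial iron carrier SLC25A28 (-0.77 ± 0.15, adjusted p = 0.00994) and the metal transporter SLC39A8 (-0.30 ± 0.07, adjusted p = 0.0215). Each missed the threshold without the second or the third non-induced DMSO library, and SLC39A8 also without the first or without either the first or second induced one.

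Of 12 genes tested from a list on peroxides and lipid peroxides, 2 rose on induction in DMSO (median 0.16), where 6.01% of all genes were called higher. When the p300/CBP compound was present 5 rose and 3 fell on induction (median 0.06), beside 16.4% and 16.2% of all genes, and with the PCAF/GCN5 compound 3 rose and 2 fell (median 0.01), beside 11.4% and 12.5%. PRDX6, a peroxiredoxin that repairs oxidised lipids, went from 203, 200 and 199 CPM to 259, 258 and 271 CPM (0.36 ± 0.06, adjusted p = 0.0032). The other was ACSL4, which is not a defence gene: it activates polyunsaturated fatty acids for phospholipids, which favours lipid peroxidation (0.27 ± 0.07, adjusted p = 0.0267), and its call was lost without any 1 of the non-induced DMSO libraries or the first induced one. GPX4, the enzyme that reduces lipid peroxides, fell on induction with the PCAF/GCN5 compound (-0.38 ± 0.09, adjusted p = 0.00569) and, a value chosen after it was seen, with the p300/CBP compound (-0.33 ± 0.05, adjusted p = 3.13e-05). SOD2, the superoxide dismutase of mitochondria, fell on induction with the p300/CBP (-0.38 ± 0.06, adjusted p = 2.99e-05) and the PCAF/GCN5 compound (-0.41 ± 0.07, adjusted p = 0.000667). SLC3A2, the heavy chain of the cystine importer, fell with the p300/CBP compound in non-induced cells from 163, 152 and 149 CPM to 131, 130 and 115 CPM (-0.32 ± 0.06, adjusted p = 0.00248). There 2 of 12 fell and none rose (median 0.05), where 6.46% of all genes were called lower and 3.43% higher. The other was SOD2 (adjusted p = 0.0419), which missed the threshold in 4 of 6 fits that left out a library.

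In heme synthesis and turnover, FECH was the gene whose compound response differed between states. This enzyme puts iron into heme. With the p300/CBP compound it held 57.4, 58.6 and 59.5 CPM in non-induced cells, against 55.6, 59.8 and 55.1 CPM with DMSO. In induced cells it held 80.7, 82.6 and 81.1 CPM against 60.0, 59.7 and 55.3 CPM (0.47 ± 0.06, adjusted p = 0.00309). The rise was seen in all 3 induced libraries and the difference between the states was 0.46 ± 0.08 (adjusted p = 0.00702). Of the 13 genes tested for that difference it was the 1 that passed, beside 1.28% of all genes. FECH also rose on induction with the PCAF/GCN5 compound (0.229 to 0.280 with a library left out), a call lost in 2 of 6 such fits. For that compound 0 of 13 genes passed the test of the difference between states, beside 0.0696% of all genes. ABCG2, which exports heme, was higher in induced cells given the PCAF/GCN5 compound, from 8, 6 and 4 counts to 45, 23 and 43 counts (adjusted p = 0.0218). It was the 1 of 13 called in that comparison, beside 0.345% of all genes. That call was lost without any 1 of the PCAF/GCN5 libraries or the first or second DMSO one (0.0562 to 0.185). ABCG2 also rose on induction with the p300/CBP compound (2.672 to 3.701 with a library left out) and with the PCAF/GCN5 compound (2.510 to 3.451). None of those fits lost the call. Over the list, induction with the p300/CBP compound raised 5 of 13 and lowered 1 (median 0.125), beside 16.4% and 16.2% of all genes. With the PCAF/GCN5 compound 4 rose and 1 fell (median 0.062), beside 11.4% and 12.5%. In DMSO 1 of 12 rose (median 0.109), beside 6.01%.

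**Figure D4:**
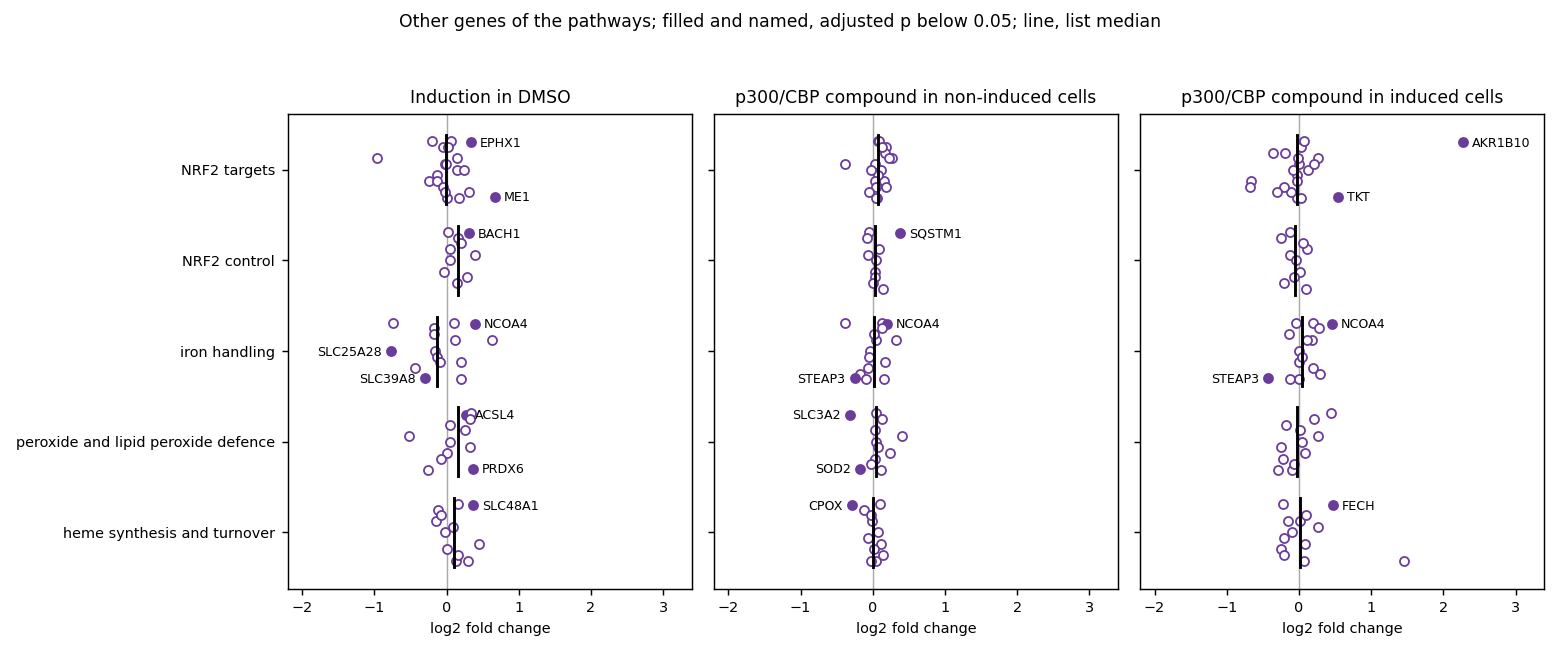
Log2 fold change of the listed genes of 5 pathways on induction in DMSO (left) and with the p300/CBP compound in non-induced (middle) and induced (right) cells, with filled, named points at an adjusted p below 0.05 and a line at the list median. Most genes are open points near 0, NCOA4 is filled right of 0 in all 3 panels and FECH in the right panel alone.

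The genes whose levels most resembled each member over the 18 libraries were looked up among 10719 others with a mean of at least 5 CPM, by Pearson's r of log2 CPM. TFRC was closest to SMCHD1 and BRCA2 (r = 0.981 for each), TXNRD1 to PEG10 (0.972) and MME (0.970), and GCLM to OIP5-AS1 (0.953) and PEG10 (0.937). NFE2L2 was closest to SCYL2 (0.937) and TBC1D5 (0.932), GCLC to USO1 (0.912) and PRKAB2 (0.903), and SRXN1 to SART1 (0.959) and LAGE3 (0.953). For NQO1 they were MGST3 (0.899) and TSPAN3 (0.873), for FTH1 CLTC (0.868) and HIST1H2AC (0.861), for HMOX1 GLB1 (0.865) and SPTLC2 (0.838), and for FTL USP44 (0.824) and WWC3 (0.808). These points share 6 groups and the libraries' depth, so the values describe a shared pattern over groups and nothing more.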

How the data were processed

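RNA of 18 H1299 libraries was sequenced by the authors from total RNA with a directional kit, per the labels' protocols. The submitters' processing notes name StringTie and DESeq2; aligner, annotation, versions, counting program and use of strand are not given in the sources used here. Each of the 4 deposited tables holds raw counts per gene for 6 libraries, per the file headers, and these counts were used. The tables also hold the authors' log2 fold change with its error, their deposited p-value and adjusted p, and columns marked pseudo, which were not used. In the tables of induced cells the sign of the log2 fold change was turned so that compound minus DMSO is positive. ANK2, broken over lines in 1 table, was left out, which left 60622 of 60623 genes; the 6 DMSO columns given more than once were equal. Non-induced DMSO counts were read from the other table. Of the 10 member spans, 3 equal GENCODE 29 and all overlap it on the same chromosome, so positions are on GRCh38.

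The libraries of a comparison, and no others, entered its model, a quasi-likelihood F test after TMM scaling and filterByExpr (edgeR 4.0.16, R 4.3.3). Genes were called at a Benjamini-Hochberg adjusted p below 0.05 across every gene tested. Errors are the log2 change divided by the square root of F, and intervals are 95%. The procedure was also run on simulated counts, drawn with the spread fitted to these libraries. They held no library that stood apart, so they do not test the influence of one. CPM are counts per 1000000. A count of 0 allows up to 3 counts, 0.103 to 0.331 CPM over the libraries, for counting error only. Members and lists were chosen with earlier results of these data known. All 10 members were named in each comparison, and of each list up to 4 called genes with the largest change. Alternatives were DESeq2 1.42.0 (size factors or Wald test), no filter, a replicate block, all 6 groups in 1 fit, added ferritin copies, and each library left out. Some genes are not reported here.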

Additional observations from a re-analysis of the deposited data

Results flagged for a closer look

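The effect of a compound differed between induced and non-induced cells, by the test of the difference itself (edgeR quasi-likelihood, Benjamini-Hochberg adjusted), for 2 of the genes examined. FECH changed with the p300/CBP compound by 0.463 more on the log2 scale in induced cells (SE 0.082, adjusted p = 0.00702), and this held in each of 12 fits that left out 1 library (0.413 to 0.479). CDKN1A, examined as a check of induction, changed by 2.558 more with the p300/CBP compound (adjusted p = 8.99e-11) and by 1.174 more with the PCAF/GCN5 compound (adjusted p = 2.7e-05), with 3 of 3 induced libraries of each compound above every DMSO library.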

How the results depend on the processing

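With 3 libraries a group, no called member changed sign under any alternative run. Counts of members called moved as follows. Induction in DMSO gave 1 to 5 with a library left out and 4 with all 6 groups in 1 fit. Induction with the p300/CBP compound gave 3 to 5, or 4 without a filter and 3 with all 6 groups, and with the PCAF/GCN5 compound 3 to 4. The p300/CBP compound in non-induced cells gave 4 to 6, or 5 without a filter. The p300/CBP compound in induced cells gave 2 without a filter, 1 by DESeq2, 2 with all 6 groups in 1 fit and 0 to 4 with a library left out. The PCAF/GCN5 compound in induced cells gave 1 without a filter (SRXN1, -1.11, adjusted p = 0.000332). The compounds in non-induced cells differed for 2 without a filter, 0 with the replicate block and 0 to 1 with a library left out. The p300/CBP interaction gave 0 to 2. The cause was not tested.

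Replicate numbers did not pair the libraries: in 0 of 9 comparisons did all pairs correlate above 0.1 (r from -0.139 to 0.123). The replicate block left 109 of 110 member results on their side of the threshold, and ended the call of FTH1 between the compounds in non-induced cells (0.27, adjusted p = 0.139). Of the list genes named, it ended the calls of EPHX1 (0.056) and ACSL4 (0.0653) on induction in DMSO, of AKR1B10 (0.0659) with the p300/CBP compound in induced cells and of SOD2 (0.0648) with it in non-induced cells.

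Sign changes were all of uncalled values. For HMOX1 the p300/CBP interaction was -0.004 without a filter and -0.004 with all 6 groups, and for FTL the PCAF/GCN5 interaction was 0.004 with DESeq2 size factors, 0.003 by its Wald test and 0.007 with all 6 groups. With a library left out, induction in DMSO ran from -0.095 to 0.054 for HMOX1, -0.058 to 0.045 for NFE2L2 and -0.468 to 0.513 for SRXN1. Induction with the p300/CBP compound ran from -0.105 to 0.026 for HMOX1 and -0.291 to 0.329 for SRXN1, and with the PCAF/GCN5 compound from -0.010 to 0.074 for NQO1. In induced cells NQO1 ran from -0.007 to 0.083 with the p300/CBP and -0.043 to 0.055 with the PCAF/GCN5 compound. In non-induced cells GCLM ran from -0.037 to 0.038 and -0.044 to 0.019 in that order, and NFE2L2 from -0.008 to 0.049 with the PCAF/GCN5 compound. Between compounds in induced cells the ranges were -0.018 to 0.046 (HMOX1), -0.199 to 0.593 (SRXN1), -0.072 to 0.046 (TFRC), -0.069 to 0.003 (TXNRD1), -0.002 to 0.087 (NFE2L2) and -0.011 to 0.074 (NQO1), and in non-induced cells -0.013 to 0.048 (GCLM) and -0.620 to 0.004 (SRXN1). The p300/CBP interaction ran from -0.075 to 0.069 (HMOX1), -0.531 to 0.506 (SRXN1) and -0.076 to 0.025 (FTL), and that of the PCAF/GCN5 compound from -0.055 to 0.081 (FTL) and -0.030 to 0.094 (GCLC).

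SRXN1 had the fewest counts of the members, and its libraries differed widely within some groups. Induced libraries given the PCAF/GCN5 compound held 86, 12 and 57 counts, and those given DMSO 68, 61 and 185. The cause of this spread was not tested. Genes called over all tested rose without the third induced DMSO library from 2075 to 5001 for induction in DMSO. DESeq2 gave no adjusted p for 2 member results.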
